A study of Danio rerio with 8 samples.

Results

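BMP pathway genes of the zebrafish were read in sorted pineal complex cells: 7 ligand genes, 4 receptor genes, 6 Smad genes, 5 Id genes, 6 genes of extracellular antagonists and pseudoreceptors, and 5 Msx and Gata genes. These 33 genes were chosen by name. Of them 32 have a row under that name among the 32433 rows of the authors' deposited table, and chordin (chrd) has a row under its older name chd, matched by gene identifier. The cells were sorted by fluorescence from heads of Tg(flhBAC:kaede)vu376 embryos at 24 to 26 hours post-fertilization. In this line a flh transgene (floating head, which encodes a homeodomain factor of the early pineal) drives the photoconvertible protein Kaede, so the sort takes every head cell that carries Kaede. The knockdown group consists of 4 libraries from embryos injected with a splice-blocking morpholino (an antisense oligonucleotide) against tbx2b, 2 at 5 ng and 2 at 6 ng, and the wild-type group consists of 4 libraries from uninjected embryos of the same line. By the labels, libraries come in pairs of technical replicates, so each group rests on 2 RNA samples. Both knockdown samples had their own dose, so an effect of dose and the spread between samples cannot be told apart, and neither can the injection and the loss of Tbx2b.

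Bone morphogenetic proteins (BMPs) are secreted ligands of the TGF-beta superfamily. They bind type I and type II receptor kinases, which phosphorylate the receptor-activated Smads, and these enter the nucleus with Smad4 and switch on targets such as the Id and Msx genes. The inhibitory Smads are targets that feed back on the receptors, while noggin and chordin bind the ligands outside the cell. In the zebrafish pineal organ BMP signalling is known to promote the photoreceptor fate, together with Notch signalling.

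The authors' deposited table gives 1 FPKM value per gene and group (fragment counts divided by transcript length and by mapped fragments in all, so that levels of different genes can be compared). It gives no value per library, so no spread can be printed, library depth is unknown, and no test across replicates could be run here. Every FPKM value given here is such a group value of the authors. The authors' Cuffdiff test gives a p and a q value (p adjusted over all 18954 tested genes), and its calls extend to q = 0.0457. Where technical replicates entered that test separately, its p values measure in part technical spread. Rescaling to TPM, so that both groups have the same sum, adds 0.106 to every log2 fold change. The targeted gene tbx2b was at 18.3 FPKM in the knockdown and 17.4 FPKM in wild-type (q = 0.999 in the authors' deposited table), and a gene-level value does not check a splice block. Of the 11 markers listed for the pineal complex, 10 were matched and each was above 0 in both groups. The same holds for 18800 of the 18954 tested genes, so it does not show the identity of the cells. Flh, whose transgene marks the sorted cells, was at 129 FPKM in the knockdown and 238 FPKM in wild-type.

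Most of the listed genes were above 1 FPKM in the sorted cells, and none of those tested was called different between the groups. Of the 32 genes matched by name, 29 were above 1 FPKM in both groups. The exceptions were bmp6, bmp5 and nog3. Of all 18954 tested genes, 16158 were at 1 FPKM or more in at least 1 group. Every listed gene that was tested met this looser criterion, while bmp5 and nog3 were not tested. The authors tested 30 of the 32, and their median level was 9.67 FPKM in the knockdown and 10.5 FPKM in wild-type, against medians over all tested genes of 5.32 FPKM in the knockdown and 5.55 FPKM in wild-type. None of the 30 was called higher or lower by Cuffdiff in the authors' deposited table, where 0.438% of all tested genes were called. At an unadjusted deposited p under 0.05, 5 of the 30 were lower (bmp7a, bambib, id2a, id3 and msxd), where 3.76% of all tested genes were lower at that p. At the same p 0 of the 30 were higher, where 1.77% of all tested genes were higher. At a deposited q of at most 0.1, bmp7a was lower (0.506% of all tested genes were lower at that q) and 0 of the 30 were higher (0.153%). The log2 fold change, knockdown over wild-type, had a median of -0.16 over the 30 genes and of -0.03 over all tested genes above 0 in both groups. Rescaled to TPM these medians were -0.05 and 0.07. The deposited value was below 0 for 23 of the 30 genes, or 76.7%, against 54.1% of all tested genes above 0 in both groups. By mean level the latter share was 57.1% at 1 to 10, 47.8% at 10 to 100 and 49.5% at 100 to 1000 FPKM. It was 87.1% at 1000 FPKM or more, a range that held only id1 of the 30 genes. For 7 of those 23 members the value turned positive when rescaled to TPM. That rescaling shifts all genes alike, and the share of all tested genes below 0 after it was not counted. Of the 30 genes, 16 had an absolute log2 fold change under 0.25. With chordin added, the median over 31 genes was -0.19, and no gene was called.

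**Figure D1:**
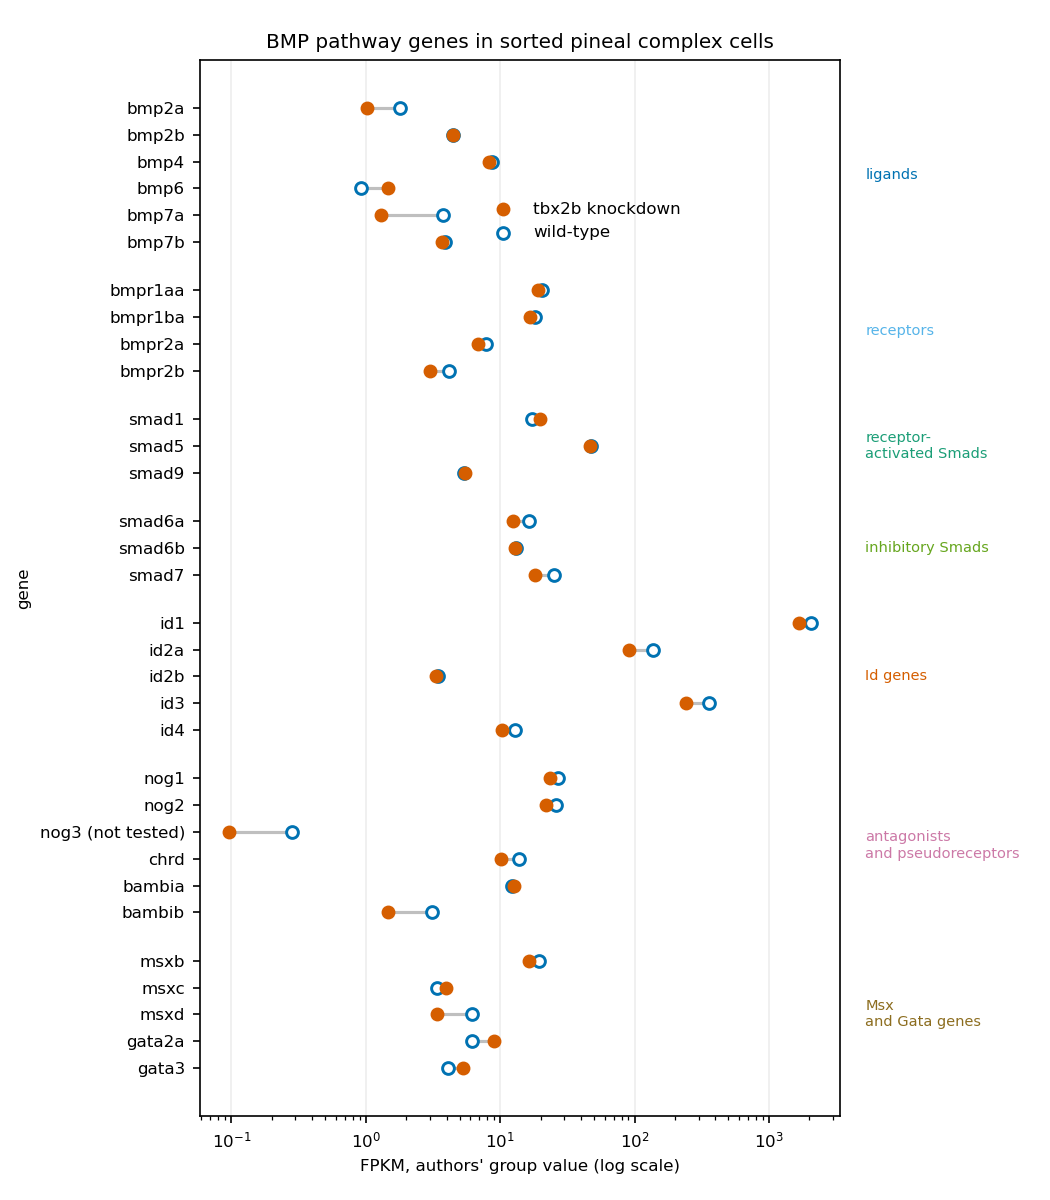
Level of each BMP pathway gene in FPKM (x axis, log scale) in the tbx2b knockdown (filled points) and in wild-type (open points), 1 group value each without error bars, with genes down the page by role. Levels run from 0.0955 FPKM for nog3 to 1671 FPKM for id1 in the knockdown; bmp5, listed at 0 in both groups, is not drawn.

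Among the ligands, bmp7a stood apart from the rest. Bmp7a, known as snailhouse in zebrafish and needed for ventral fates in the gastrula (ENSDARG00000018260, Zv9 chromosome 11, 7194746 to 7226326), was at 1.30 FPKM in the knockdown and 3.74 FPKM in wild-type, which is 2.87-fold lower in the knockdown. In the authors' deposited table its log2 fold change was -1.52 with p = 0.0005 and q = 0.0824, so it was not called. Its p was the 111th smallest of all tested genes, counting ties at their first place. Bmp2a (ENSDARG00000013409, chromosome 17, 4004629 to 4008908) was at 1.03 FPKM in the knockdown and 1.81 FPKM in wild-type. The authors' deposited table gives it a log2 fold change of -0.81, with p = 0.0825 and q = 0.999. The reverse order was seen for bmp6 (ENSDARG00000015686, chromosome 24, 7974761 to 8049198), at 1.47 FPKM in the knockdown and 0.920 FPKM in wild-type. This is a log2 fold change of 0.67, with p = 0.189 in the authors' deposited table.

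The 3 most abundant ligands in the knockdown were nearly level between the groups. Bmp4 (ENSDARG00000019995, chromosome 17, 51094183 to 51116249) was the highest, at 8.26 FPKM in the knockdown and 8.76 FPKM in wild-type, with a log2 fold change of -0.08 and p = 0.801 in the authors' deposited table. Bmp2b, known as swirl and needed with bmp7a for ventral fates, was at 4.44 and 4.45 FPKM in knockdown and wild-type cells. Bmp7b was at 3.67 and 3.87 FPKM in knockdown and wild-type cells. These small differences turn positive when rescaled to TPM, as does the ligand median, which was -0.08 as deposited and 0.02 rescaled. Bmp5 lies on an unplaced scaffold, is listed at 0 in both groups and was not tested, so its absence from the cells is not shown. Summed over the 7 genes, ligand FPKM came to 20.2 in the knockdown and 23.6 in wild-type, and bmp7a makes up most of that gap.

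The 4 receptors chosen by name were all slightly lower in the knockdown as deposited, and none came near a call. Of these 4, the type I receptor bmpr1aa (ENSDARG00000019728, chromosome 13, 22696002 to 22786366) was the most abundant, at 19.1 FPKM in the knockdown and 20.3 FPKM in wild-type. In the authors' deposited table it had a log2 fold change of -0.09, with p = 0.785, which turns positive rescaled to TPM. Bmpr1ba, also of type I, was at 16.7 and 18.1 FPKM in knockdown and wild-type cells. The type II receptors were less abundant: bmpr2a was at 6.81 FPKM in the knockdown and 7.79 FPKM in wild-type, and bmpr2b was at 3.03 FPKM in the knockdown and 4.18 FPKM in wild-type. The largest receptor difference was that of bmpr2b, with a log2 fold change of -0.47 and p = 0.159 in the authors' deposited table. The loci of bmpr1aa and bmpr2a are shared with other rows, as are those of smad9 and smad6a, so reads of overlapping genes can enter these values. The receptor median log2 fold change was -0.16 over all 4 genes and -0.29 without those 2 receptors.

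The receptor-activated Smads, which carry the signal, differed little between the groups: smad5 (ENSDARG00000037238, chromosome 14, 27476297 to 27507294), the most abundant and known as somitabun in zebrafish, was at 46.9 FPKM in the knockdown and 47.0 FPKM in wild-type, with p = 0.989 in the authors' deposited table. Smad1 was at 19.7 and 17.1 FPKM and smad9 at 5.53 and 5.38 FPKM in knockdown and wild-type cells. Their median log2 fold change was 0.04. The inhibitory Smads, which block the signal and are themselves switched on by it, had a median of -0.40. Smad7 (ENSDARG00000016858, chromosome 21, 3658166 to 3689369) was at 18.1 FPKM in the knockdown and 25.2 FPKM in wild-type. For smad7 the authors' deposited table gives a log2 fold change of -0.48, with p = 0.0953 and q = 0.999. Smad6a was at 12.4 FPKM in the knockdown and 16.3 FPKM in wild-type, whereas its duplicate smad6b was at 12.8 and 13.2 FPKM in those groups. The p of smad6a was 0.162 in the authors' deposited table, and no inhibitory Smad was called. The median of these 3 genes moves to -0.26 without smad6a, whose locus is shared. The difference between both Smad classes was not tested.

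**Figure D2:**
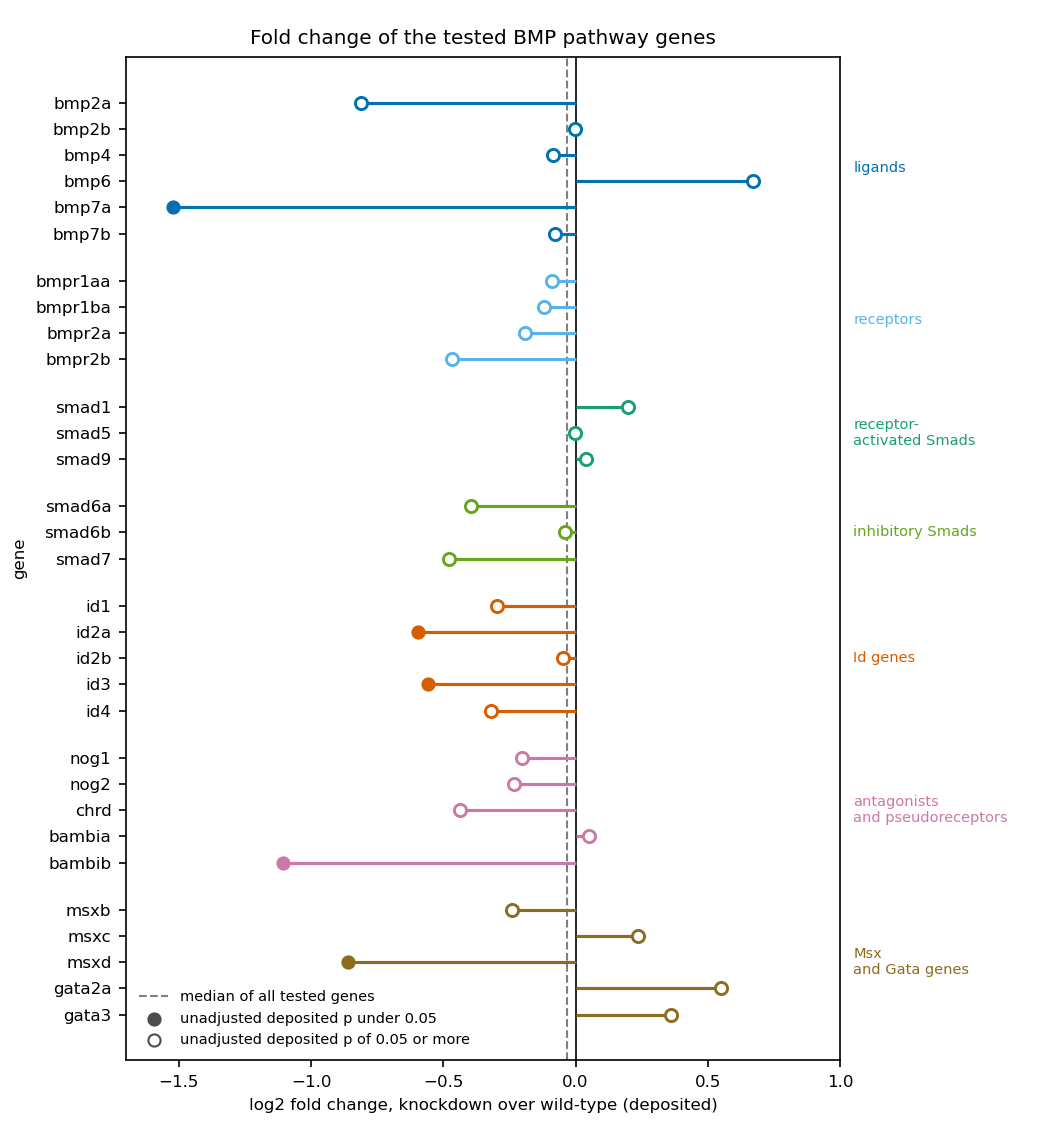
Log2 fold change (x axis, knockdown over wild-type) of the 30 tested genes and of chrd, which was matched by identifier, with genes down the page by role. Filled points have an unadjusted deposited p under 0.05 and open points do not; all 5 filled points (bmp7a, id2a, id3, bambib and msxd) lie left of 0, and the dashed line marks the median of all tested genes, -0.03.

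The Id genes held the 3 highest levels of the pathway, and all 5 were lower in the knockdown as deposited. They encode helix-loop-helix proteins without a DNA-binding basic region, which hold basic helix-loop-helix factors off DNA and so restrain differentiation. Id1 (ENSDARG00000040764, chromosome 11, 19124534 to 19125635) was at 1671 FPKM in the knockdown and 2051 FPKM in wild-type, the 117th and 110th highest level among tested genes in those groups. It made up 82.8% of the summed Id FPKM in the knockdown and 80.1% in wild-type. Its log2 fold change in the authors' deposited table was -0.30, with p = 0.291 and q = 0.999. That value lies close to those of other genes of its level: 147 tested genes had a mean of 1000 FPKM or more, their median was -0.24, and 44 of them had a lower value than id1.

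Id3 and id2a lay toward the lower end of the fold changes of genes of their level. Id3 (ENSDARG00000054823, chromosome 17, 27113088 to 27114986) was at 242 FPKM in the knockdown and 356 FPKM in wild-type. Its log2 fold change was -0.56, with p = 0.0182 and q = 0.637 in the authors' deposited table. Id2a (ENSDARG00000055283, chromosome 17, 34973026 to 34975295) was at 91.5 FPKM in the knockdown and 138 FPKM in wild-type. That corresponds to a log2 fold change of -0.60, with p = 0.0152 and q = 0.580 in the authors' deposited table. Of 806 tested genes with a mean of 100 to 1000 FPKM, whose median log2 fold change was 0.00311, 44 had a lower value than id3 and 41 a lower value than id2a. Neither gene was called. Of the other classes, bmp7a, bambib, msxd, bmp2a and smad7 lay at a lower place still among genes of their own level. Bmp6 and gata2a lay toward the upper end. Id4 was at 10.3 FPKM in the knockdown and 12.9 FPKM in wild-type (p = 0.296 in the authors' deposited table). Id2b was at 3.32 and 3.44 FPKM in those groups, a difference that turns positive rescaled to TPM.

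**Figure D3:**
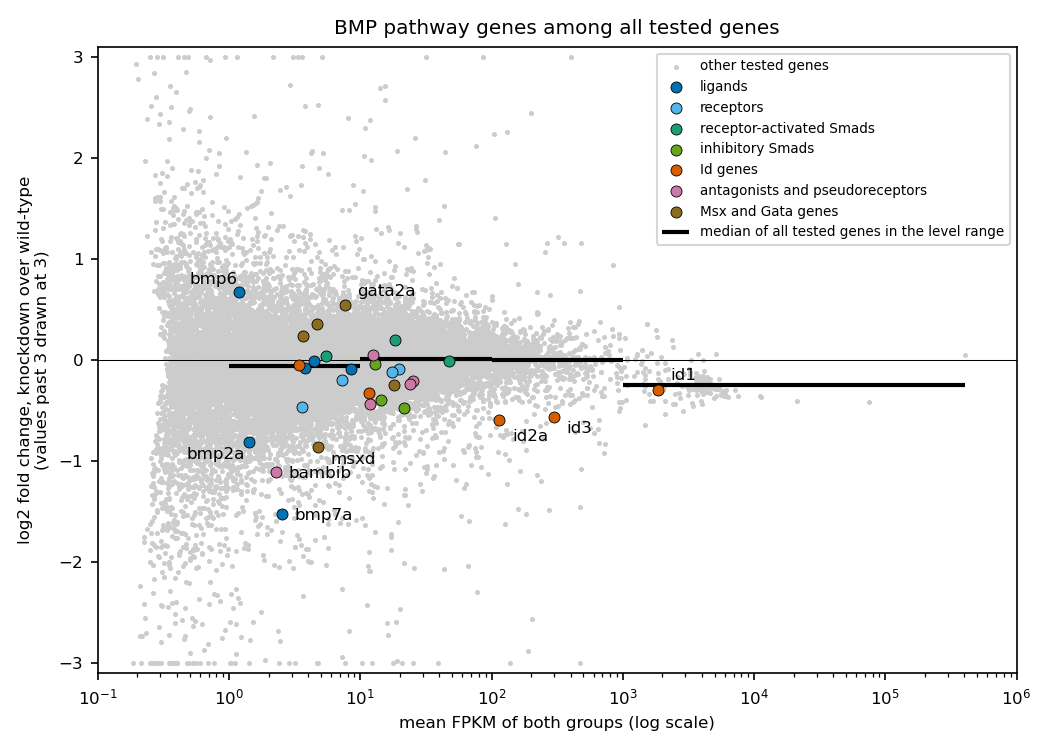
Log2 fold change (y axis, knockdown over wild-type; values past 3 are drawn at 3) against the mean FPKM of both groups (x axis, log scale) for all tested genes above 0 in both groups (grey) and the BMP pathway genes (coloured by role). Black bars are medians of all tested genes in 4 level ranges; id1 lies near the bar of its range, -0.24, while id2a and id3 lie well below theirs, 0.00311.

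The noggin genes encode secreted proteins that bind BMPs and keep them from their receptors. Nog1 (ENSDARG00000058819, chromosome 3, 10693518 to 10695681) was the most abundant antagonist, at 23.6 FPKM in the knockdown and 27.1 FPKM in wild-type, with a log2 fold change of -0.20 and p = 0.466 in the authors' deposited table. Nog2 was at 22.1 and 25.9 FPKM in knockdown and wild-type cells. Both stood above every ligand in level in each group. Nog3 was at 0.0955 FPKM in the knockdown and 0.282 FPKM in wild-type and was not tested by the authors. Chordin, a further secreted BMP antagonist, was at 10.1 FPKM in the knockdown and 13.7 FPKM in wild-type (p = 0.0876 and q = 0.999 in the authors' deposited table).

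The bambi genes encode a receptor-like membrane protein without a kinase domain, which damps BMP and TGF-beta signals and is itself a BMP target. Bambib (ENSDARG00000056406, chromosome 2, 3091037 to 3098818) was at 1.45 FPKM in the knockdown and 3.13 FPKM in wild-type, 2.15-fold lower in the knockdown. Its log2 fold change in the authors' deposited table was -1.11, with p = 0.00335 and q = 0.273, so it was not called. Its duplicate bambia was at 12.8 FPKM in the knockdown and 12.3 FPKM in wild-type.

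The Msx and Gata genes went in both directions. Msx genes encode homeodomain factors of the neural plate border and dorsal neural tube. Msxd (ENSDARG00000006982, chromosome 21, 40051374 to 40054278) was at 3.39 FPKM in the knockdown and 6.14 FPKM in wild-type, with a log2 fold change of -0.86, p = 0.0489 and q = 0.897 in the authors' deposited table. Msxb (ENSDARG00000008886, chromosome 1, 49859298 to 49861712), the most abundant of the class, was at 16.4 FPKM in the knockdown and 19.4 FPKM in wild-type (p = 0.374 in the authors' deposited table). Msxc was at 3.98 and 3.38 FPKM in knockdown and wild-type cells. Gata2a (ENSDARG00000059327, chromosome 11, 3909991 to 3922643), a zinc-finger factor of blood and endothelial progenitors and of some neurons, was at 9.00 FPKM in the knockdown and 6.15 FPKM in wild-type. The log2 fold change of gata2a was 0.55, with p = 0.0754 and q = 0.999 in the authors' deposited table. Gata3, its paralog, was at 5.27 FPKM in the knockdown and 4.11 FPKM in wild-type (p = 0.259 in the authors' deposited table).

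Zebrafish keep many genes in duplicate, and the copies differed unequally between the groups in the 6 pairs with both copies among the 33 genes, though not in every pair of the wider pathway. Bmp7a stood at 0.355 times the level of bmp7b in the knockdown and at 0.967 times in wild-type. Bambia stood at 8.77 times the level of bambib in the knockdown and at 3.93 times in wild-type. For bmp2a and bmp2b that ratio was 0.232 in the knockdown and 0.406 in wild-type, and for id2a and id2b it was 27.5 in the knockdown and 40.3 in wild-type. Smad6a over smad6b was 0.970 in the knockdown and 1.24 in wild-type, and bmpr2a over bmpr2b was 2.25 in the knockdown and 1.86 in wild-type. In each of the 6 pairs 1 copy had an absolute log2 fold change of at most 0.193 and the other of at least 0.395. The log2 fold changes of the copies differed by a median of 0.679, against 0.210 over 1024 pairs of tested genes named alike with a and b and with a mean of 1 FPKM or more (quartiles 0.0962 and 0.410). The list of further pathway genes adds 5 tested pairs with 1 row per copy. They had a median difference of 0.0962, and 2 of them exceeded 0.210. In those 2 pairs the log2 fold changes were -0.18 for gdf6a and 1.495 for gdf6b, which was under 1 FPKM in both groups, and -0.52 for tob1a and -0.03 for tob1b. The copies lay close together for bmpr1aa and bmpr1ab, at -0.09 each, for bmp1a and bmp1b, at -0.29 and -0.32, and for skia and skib, at -0.23 and -0.13. Bmp1b was also under 1 FPKM in both groups, and its locus is shared. Unlike the 1024 pairs, these 5 pairs were taken without a minimum level. The pair bmpr1ba and bmpr1bb was left out of them because bmpr1bb has 2 tested rows. Bmpr1ba was at -0.12 and the rows of bmpr1bb at -0.40 and 0.17, each further than 0.210 from bmpr1ba. The comparison of copies was chosen after their values were seen, the pairs were not matched on level, and the difference between copies was not tested. Rescaling to TPM shifts both copies alike.

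**Figure D4:**
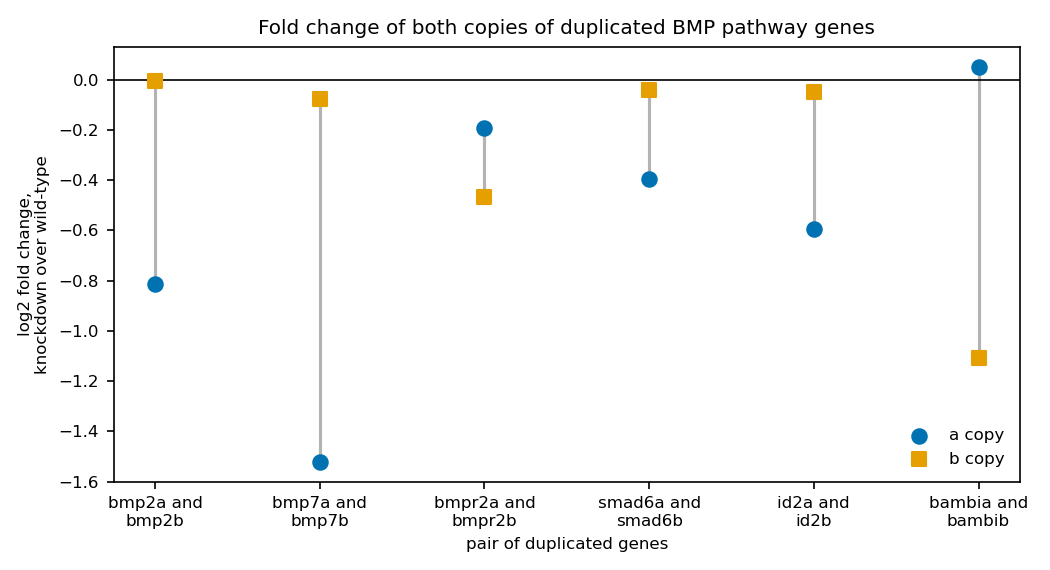
Log2 fold change (y axis, knockdown over wild-type) of the a copy (circles) and the b copy (squares) for 6 pairs of duplicated BMP pathway genes (x axis), without error bars. In every pair 1 copy lies at or above -0.19 and the other at or below -0.40, with the widest gap for bmp7a and bmp7b.

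Further genes of the pathway had a median close to that of the 30 tested genes and held no call either. Of 64 names listed, 10 were not matched, and of 55 rows 41 were tested by the authors, with none called (0.438% of all tested genes were). At an unadjusted deposited p under 0.05, 2 of the 41 were lower and 2 higher, where 3.76% of all tested genes were lower and 1.77% higher. The median log2 fold change was -0.16, with 28 of 41 below 0. Msxe, which is a further Msx gene, was at 5.03 FPKM in the knockdown and 9.81 FPKM in wild-type (p = 0.00545 and q = 0.344 in the authors' deposited table). Tob1a, of a family that restrains cell proliferation, was at 30.4 FPKM in the knockdown and 43.5 FPKM in wild-type (p = 0.0285 and q = 0.746 in the authors' deposited table), and its locus is shared with other rows. Dlx3b, a homeobox gene of the border between neural plate and epidermis, was at 26.6 FPKM in the knockdown and 17.4 FPKM in wild-type (p = 0.0186 and q = 0.638 in the authors' deposited table). Dlx4b, which acts with dlx3b in the sensory placodes, was at 7.00 FPKM in the knockdown and 4.13 FPKM in wild-type (p = 0.0314 and q = 0.779 in the authors' deposited table). The most abundant was tob1b, at 74.2 and 75.8 FPKM in knockdown and wild-type cells. The type I receptor acvr1l (alk8) was at 41.6 and 45.0 FPKM in those groups.

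Markers of several cell types moved with the group. Over all tested genes 0.106% were called higher and 0.332% lower, and 54.1% of those above 0 in both groups lay below 0 in log2 fold change. The summed level of the 10 pineal complex markers was 186 FPKM in the knockdown and 325 FPKM in wild-type. Of these 10, 3 (otx5, gngt1 and saga) were called lower in the authors' deposited table, with 7 below 0 and 3 above 0. Flh alone makes up most of that gap in the sum and was not called (q = 0.0986 in the authors' deposited table). Neural crest and pigment markers summed to 257 FPKM in the knockdown and 490.1 FPKM in wild-type, with 4 of 15 called lower and all 15 below 0. The calls were the pigment genes dct, tyrp1b, pmelb and oca2, while sox10, foxd3 and mitfa were not called. Gch2, also not called, held the largest part of the sum, at 181 FPKM in the knockdown and 283 FPKM in wild-type. Dorsal neural tube and roof plate markers, tissue in which Msx and Id genes are known to be active, summed to 309 FPKM in the knockdown and 396 FPKM in wild-type, with none of 11 tested genes called and 10 of 11 below 0. Endothelial markers, beside which gata2a can be set, summed to 299 FPKM in the knockdown and 161 FPKM in wild-type, with 6 of 16 called higher and all 16 above 0. Epidermis markers summed to 1748 FPKM in the knockdown and 1455 FPKM in wild-type, with none of 15 called, 12 above 0 and 3 below 0. Lens and retina markers had a median log2 fold change of -0.86 with none of 10 called, 7 below 0 and 3 above 0. Notochord and floor plate markers had a median of 0.33 with none of 7 called and all 7 above 0. Of 11 tested erythroid markers 3 were called lower, all of them rows of the globin genes hbae1 and hbae3. The rows of hbae1 were at 0 FPKM in the knockdown. Of the 9 erythroid markers above 0 FPKM in both groups, 7 lay below 0 in log2 fold change, and only gata1a and urod lay above 0. Of 4 tested heart muscle markers 4 were called higher. All 4 were low in wild-type, where the highest was tnnt2a at 0.840 FPKM, and in the knockdown the highest was cmlc1 at 6.37 FPKM. The part of these cell types in the values of the BMP pathway genes was not tested, and in sorted bulk cells a smaller number of cells of a type and less RNA per cell cannot be told apart.

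**Figure D5:**
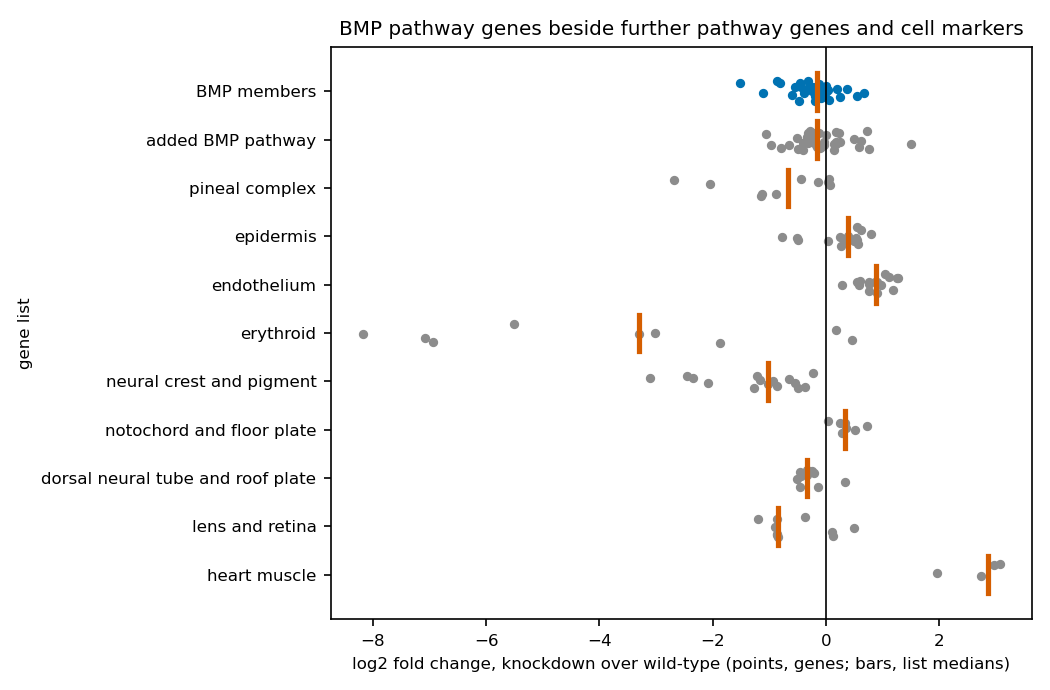
Log2 fold change (x axis, knockdown over wild-type) of single tested genes (points) and the median of each list (bars), for the BMP pathway genes (top, with chrd), further pathway genes and 9 lists of cell markers down the page. The BMP median, -0.16 over the 30 genes matched by name, lies close to that of further pathway genes, also -0.16. Medians of the marker lists run from -3.30 for erythroid markers to 2.85 for heart muscle markers.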

How the data were processed

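RNA from sorted pineal complex cells was sequenced in 8 libraries. The tools named are CASAVA 1.8.2, Trimmomatic 0.32 and FastQC 0.10.0, then TopHat2 with Bowtie2, and Cuffdiff, on genome build Zv9, per the submitters' processing notes; no source used here gives their settings, the annotation or how technical replicates entered the test. Per the file headers, the authors deposited 1 FPKM value per gene and group, a log2 fold change of knockdown (MO) over wild-type (NIC), a test score, a p-value and a q-value. Adjusting the deposited p by Benjamini-Hochberg over the tested genes gave the deposited q to within 5.23e-07. FPKM depends on all RNAs sampled, and depth per library is unknown. No source used here says whether starts are counted from 0 or 1.

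With Python 3.11.15, pandas 2.3.3 and numpy 2.4.6, rows were matched by gene name, then by identifier or by a RefSeq synonym. Medians were taken over tested genes above 0 in both groups. Only the median, the counts by sign and the Benjamini-Hochberg adjustment were tested on simulated data. The genes and lists were chosen with earlier results of these data known. Every pathway gene is named. Genes given in full have a deposited p under 0.05, an absolute log2 fold change of 0.5 or more at 1 FPKM or more in at least 1 group, or the highest level of their class. Bmpr2b, smad6a, id4, gata3 and chordin carry a p beyond that rule. Further pathway genes are named at a p under 0.05, with the most abundant, acvr1l and the copies that form pairs. The marker lists are given by counts, beside which single markers are named without a fixed rule. Promoter sequences were not used here. Alternatives were another q, an unadjusted p, a pseudocount of 1 FPKM, TPM, a minimum of 1 FPKM, and leaving out shared loci.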

Additional observations from a re-analysis of the deposited data

How the results depend on the processing

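Against a count of 0 members lower as deposited, a q of at most 0.1 gave 1 member lower (bmp7a; 0.506% of all tested genes were lower at that q), and an unadjusted p under 0.05 gave 5 (3.76% of all tested genes were lower at that p). No member was higher at either threshold, where 0.153% of all tested genes were higher at that q and 1.77% at that p. Adjusting the deposited p over the 16158 tested genes at 1 FPKM or more in at least 1 group gave no call, with a q of 0.0755 for bmp7a. Class medians moved by less than 0.15 on the log2 scale under each alternative run. With no spread between replicates, that limit is a choice. Rescaling to TPM adds 0.106 to every value, so it could not pass that limit. The minimum mean of 1 FPKM left out no tested member, so it could not move a class median. In proportion the shift to TPM was larger: it took the member median to -0.05, the Id median from -0.32 to -0.22 and the median of inhibitory Smads from -0.40 to -0.29. The sign of 7 members (bmp2b, bmp4, bmp7b, bmpr1aa, smad5, smad6b and id2b) turned positive when rescaled to TPM, and so did the ligand median, at 0.02. On log2(FPKM + 1) the log2 fold change was -1.04 for bmp7a, -0.75 for bambib, -0.70 for msxd, -0.47 for bmp2a and 0.36 for bmp6, since a pseudocount lowers the fold of low genes. No paired analysis was possible because there is a single value per group, with no replicates in the columns, and no library could be left out. Depth is unknown, so genes near 1 FPKM, such as bmp7a, bmp2a, bmp6 and bambib, carry an error that cannot be given.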
